A study of Mus musculus with 6 samples.

Results

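The genes described here are 10 contractile genes of the smooth muscle type, *Acta2*, *Actg2*, *Tagln*, *Cnn1*, *Cnn2*, *Tpm1*, *Tpm2*, *Cald1*, *Lmod1* and *Smtn*. They were taken by symbol from the 23284 genes listed for each sample, and all 10 were listed. The values come from ECFP+ osteoblasts (OBs) of ectopic bone induced by BMP-2, with 3 samples of day 10 and 3 of day 14 after the implant was placed. All mice were male *Col2.3*-ECFP mice of 12 to 16 weeks, and each implant was a collagen sponge loaded with 2.5 μg of BMP-2, so the groups shared genotype, sex, age range and treatment. The *Col2.3* fragment of the type I collagen promoter drives the cyan fluorescent protein, and ECFP+ cells are therefore cells in which that promoter is or was recently active. CD45+ cells (hematopoietic cells) and dead cells were removed in the sort. The bone received 1 collagenase digestion on day 10 but 2 on day 14, and effects of the extra digestion and of the day cannot be told apart. The sample titles place all 3 later samples on day 14, whereas their descriptions give day 14, day 15 and day 16 for replicates 1, 2 and 3. The titles call the samples biological replicates without saying which animals they came from.

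Smooth muscle cells contract when myosin pulls on filaments of actin, and the genes described here encode the actin filament and the proteins that bind along it. Several of them are switched on in cells other than muscle, including pericytes on small vessels and myofibroblasts, the contractile fibroblasts of wounds and fibrous tissue. Many are targets of serum response factor (SRF), which binds the CArG box and works with myocardin in smooth muscle and with the actin-sensing myocardin-related factors elsewhere.

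The values are FPKM, the fragments of a gene scaled by transcript length and by the mapped reads of the sample, so that levels of different genes can be set side by side per length. FPKM summed to 431898 to 486940 per sample, and 16646 to 19698 genes were above 0. Depth was estimated from the steps between low values at 4530435 to 7758727 mapped reads, with day 10 replicate 3 the deepest. At that depth 3 reads on 1000 usable bases amount to 0.387 to 0.662 FPKM, which covers counting error only. *Col1a1*, the type I collagen gene of OBs, stood at 14151 to 34157 FPKM. The summed FPKM of 7 OB genes was 54192, 52070 and 28368 on day 10 and 19619, 38269 and 15669 on day 14. The sum over 10 chondrocyte genes was 773 to 1548 on day 10 and 229, 2414 and 193 on day 14, so that day 14 replicate 2 stood apart from the other samples of its day. In sorted bulk samples, a larger share of cells of some type and more RNA per cell cannot be told apart.

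In the GENCODE vM21 annotation of mm10, the 10 genes lie on 7 chromosomes, with *Tagln*, *Cnn1* and *Tpm1* on chromosome 9 and *Actg2* and *Cald1* on chromosome 6. *Acta2* spans chr19:34241090-34255590 on the minus strand and *Cald1* spans chr6:34598500-34775473 on the plus strand. No stretch of 75 bases, the read length, in the transcripts of 8 of the genes occurs in another annotated gene. *Acta2* and *Actg2* in particular share none, although they encode closely related actins. The exceptions were *Tagln*, at chr9:45929619-45936058 on the minus strand, and *Smtn*, at chr11:3517523-3540612 on the minus strand. In *Tagln*, 40.3% of such stretches also occur in other genes, nearly all of them in the antisense gene *Gm48529*, and in *Smtn* 7.24% also occur in the antisense gene *Gm11946*. No use of strand in the counting is stated in the sources used here, so reads from these genes and from their antisense partners cannot be told apart. *Cald1* and *Tpm1* make smooth muscle forms and forms of other cells from the same gene, with 18 and 21 annotated transcripts, and a gene-level FPKM adds them up.

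Promoter windows of 300 bases (250 before and 50 after the transcription start; RefSeq, GRCm38.p6) were found for 8 of the 10 genes, all but *Actg2* and *Tagln*. They are shown for *Acta2* and *Cnn2*, the members among these 8 whose window held a match to the CArG box, the binding sequence of SRF (CC, then 6 bases of A or T, then GG, which reads the same class of sequence on both strands). Capitals mark the matches. The *Acta2* window lies at chr19:34255324-34255623 on the minus strand and the *Cnn2* window at chr10:79988350-79988649 on the plus strand.
Acta2: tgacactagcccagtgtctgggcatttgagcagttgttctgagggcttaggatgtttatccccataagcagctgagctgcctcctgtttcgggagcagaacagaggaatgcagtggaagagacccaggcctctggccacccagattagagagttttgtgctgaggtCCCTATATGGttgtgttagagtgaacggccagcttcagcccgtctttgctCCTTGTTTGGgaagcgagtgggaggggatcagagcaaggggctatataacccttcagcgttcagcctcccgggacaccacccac
Cnn2: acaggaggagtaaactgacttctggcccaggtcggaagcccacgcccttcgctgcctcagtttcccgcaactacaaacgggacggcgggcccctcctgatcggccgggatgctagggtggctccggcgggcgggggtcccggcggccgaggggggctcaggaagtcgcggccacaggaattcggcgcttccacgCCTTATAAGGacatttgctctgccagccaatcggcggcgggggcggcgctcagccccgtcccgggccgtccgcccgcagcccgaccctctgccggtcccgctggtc
The *Cnn2* window held an exact match, beginning 56 bases before the start, as did 1.629% of the 32851 promoter windows of the same length. The *Acta2* window held no exact match but matches at 84 and 34 bases before the start that had 1 G or C among the 6 central bases. Matches with at most 1 such base, exact ones included, were found in 9.984% of the windows. A match is a description of the letters, and binding was not measured here.

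The levels of the 10 genes spanned a wide range in every sample. *Acta2*, α-smooth muscle actin, was the highest on average at 379 FPKM over the 6 samples and ranked 134 among all genes by mean FPKM on day 10 and 145 on day 14. *Tpm1*, a tropomyosin that lies along the actin filament, followed at 323 FPKM. *Acta2* was above *Tpm1* in only 4 of the 6 samples, so these neighbors in the order did not differ beyond their spread. *Cnn2*, the calponin that is also made outside muscle, averaged 175 FPKM, and *Tagln*, the actin-binding protein SM22α, averaged 134 FPKM. *Cald1*, caldesmon, and *Actg2*, γ-smooth muscle actin, were close together at 81.8 and 75.9 FPKM. *Cnn2* was above *Tagln*, *Cald1* above *Actg2*, and *Actg2* above *Smtn* in 5 of 6 samples each. *Smtn*, smoothelin, at 46.4 FPKM, was above *Tpm2*, another tropomyosin, at 32.3 FPKM, in all 6 samples. The low end was formed by *Cnn1*, the calponin typical of smooth muscle, at 7.48 FPKM, and *Lmod1*, leiomodin 1, which starts actin filaments in smooth muscle, at 0.227 FPKM.

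**Figure D1:**
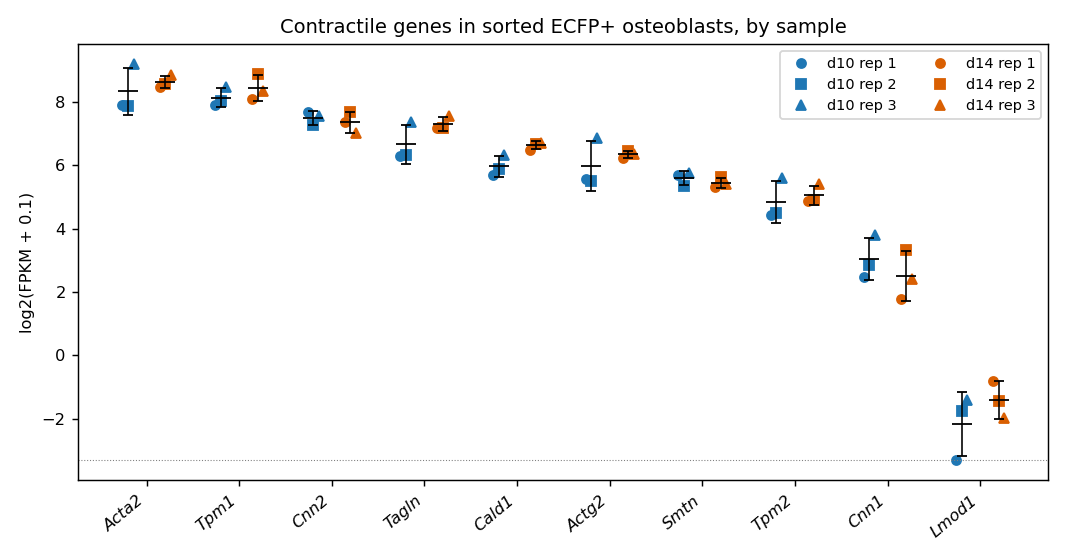
Level as log2(FPKM + 0.1) of the 10 genes in the 3 day 10 samples (blue) and the 3 day 14 samples (orange), 1 point per sample, with the mean and SD of each day as bars and 0 FPKM as the dotted line. *Acta2* and *Tpm1* form the top, with 236 FPKM as the lowest value of *Acta2*, whereas *Lmod1* does not exceed 0.468 FPKM.

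The comparison of day 10 with day 14 asked how these genes differed between early and later OBs of the forming bone. None of the 10 had an adjusted p under 0.05 (limma over 19526 genes, Benjamini-Hochberg), and the smallest was 0.340. Among all genes tested, 3 passed, or 0.0154%. *Cald1* was the only member with an unadjusted p under 0.05, beside 10.0% of all genes tested. It was also the only member whose days did not overlap, which held for 14.3% of all genes. No member differed by more than 2-fold, as 13.6% of all genes did. These shares depend on the level of the genes. In the fit of 11162 genes with a mean above 1 FPKM, which held 9 of the members, 15.3% had an unadjusted p under 0.05. Of the same genes, 20.3% did not overlap between days and 7.57% differed by more than 2-fold. The log2 differences were positive, that is higher on day 14, for 7 of the 10 genes and for 9085 of all 19526 genes tested. Their median was 0.30, against −0.04 over all genes tested. It was 0.12 without day 10 replicate 1, 0.099 without day 10 replicate 2 and 0.67 without day 10 replicate 3.

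The actins were the most abundant group. The day 10 values of *Acta2* were 243, 236 and 594 FPKM, and its day 14 values were 356, 380 and 465 FPKM. The day 14 samples lay between the pair of low day 10 samples and the high day 10 replicate 3. The means were 358 ± 205 and 400 ± 57.3 FPKM (SD, n = 3 each), a log2 difference of 0.30 (SE 0.35, adjusted p = 0.846 by limma). *Actg2*, the actin of gut and other visceral smooth muscle, was 47.0, 45.3 and 117.8 FPKM on day 10 and 74.8, 88.7 and 81.6 FPKM on day 14. It had the same arrangement, with all day 14 values between the low samples and the high sample of day 10, and its log2 difference was 0.37 (SE 0.34, adjusted p = 0.788 by limma).

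*Tagln*, which binds and bundles actin, was 79.4, 80.5 and 167.3 FPKM on day 10 and 143.9, 145.5 and 190.1 FPKM on day 14. Day 10 replicates 1 and 2 were below all day 14 samples, and replicate 3 was inside their range. Its means were 109 ± 50.4 and 160 ± 26.2 FPKM, a log2 difference of 0.63 (SE 0.29, adjusted p = 0.527 by limma). This value includes any reads of the antisense *Gm48529*.

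The tropomyosins, which run along the actin filament and govern access of myosin to it, overlapped between days. *Tpm1* was 238, 263 and 357 FPKM on day 10 and 275, 480 and 326 FPKM on day 14, with the highest value in day 14 replicate 2. *Tpm2* was 21.4, 22.3 and 48.9 FPKM on day 10 and 29.1, 30.0 and 42.2 FPKM on day 14, with the highest value in day 10 replicate 3. The samples that stood out therefore differed between these genes. Their log2 differences were 0.31 (SE 0.26) for *Tpm1* and 0.22 (SE 0.32) for *Tpm2*, with adjusted p of 0.759 and 0.880 by limma.

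The calponins *Cnn2* and *Cnn1*, which bind actin and restrain myosin, were lower on average on day 14, within their spread. Their relative *Cnn3* was higher on average, at 213 FPKM on day 10 and 285 FPKM on day 14. Its log2 difference was 0.44 (SE 0.20, adjusted p = 0.512 by limma). *Cnn2* was 205.9, 154.5 and 188.9 FPKM on day 10 and 164.9, 206.7 and 131.2 FPKM on day 14, and the days overlapped fully. Its log2 difference was −0.14 (SE 0.21, adjusted p = 0.882 by limma). *Cnn1* was 5.50, 7.15 and 13.8 FPKM on day 10 and 3.32, 9.94 and 5.17 FPKM on day 14, a log2 difference of −0.55 (SE 0.45, adjusted p = 0.761 by limma). This difference was −0.17 without day 10 replicate 3, −0.18 without day 14 replicate 1 and −0.96 without day 14 replicate 2. The values of *Cnn1* rest on an estimated 12.3 to 87.4 reads per sample, fewer than those of every other member but *Lmod1*.

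*Cald1*, which links actin, tropomyosin and myosin and slows the myosin motor, was 51.3, 59.6 and 81.3 FPKM on day 10 and 90.1, 103.0 and 105.8 FPKM on day 14. The lowest day 14 value was thus above the highest day 10 value. The means were 64.1 ± 15.5 and 99.6 ± 8.36 FPKM, a fold of 1.58 in FPKM + 0.1 and a log2 difference of 0.66 (SE 0.19, adjusted p = 0.340 by limma). The exact two-sided permutation test gave p = 0.1, which is the smallest it can give for 3 samples against 3. Its unadjusted p was under 0.05 in all 14 alternatives run, and its log2 difference ranged from 0.51 to 0.85 over them.

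*Smtn*, which marks contractile smooth muscle and binds actin fibers, varied least. It was 51.5, 40.9 and 54.2 FPKM on day 10 and 39.9, 49.2 and 42.5 FPKM on day 14, with overlapping days and a log2 difference of −0.15 (SE 0.17, adjusted p = 0.830 by limma). *Lmod1* had day 10 values of 0, 0.195 and 0.275 FPKM and day 14 values of 0.468, 0.271 and 0.152 FPKM. These values correspond to an estimated 0 to 7.9 reads per sample, so a difference between days was not detectable at this depth.

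**Figure D2:**
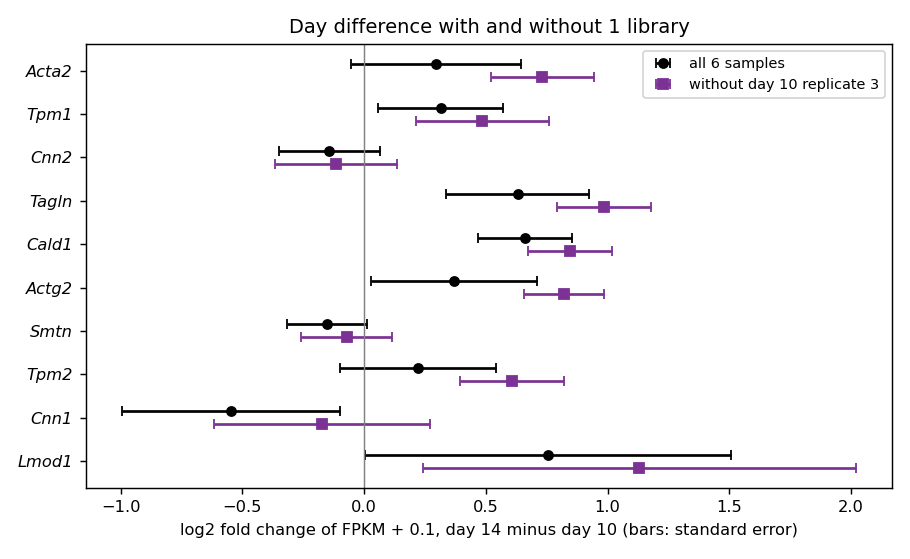
Log2 difference in FPKM + 0.1 (day 14 minus day 10) of the 10 genes with its standard error as bars, with all 6 samples (black) and without day 10 replicate 3 (purple). *Cald1* is at 0.66 with all samples and at 0.85 without that replicate, and *Acta2* moves from 0.30 to 0.73.

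Day 10 replicate 3 set the spread of several members. It held the highest value of all 6 samples for *Acta2*, *Actg2*, *Cnn1*, *Tpm2* and *Smtn*. Relative to the mean of day 10 replicates 1 and 2, it was 2.48 times as high for *Acta2*, 2.55 times for *Actg2*, 2.09 times for *Tagln*, 2.24 times for *Tpm2* and 2.18 times for *Cnn1*. The ratio was only 1.42 for *Tpm1*, 1.47 for *Cald1*, 1.17 for *Smtn* and 1.05 for *Cnn2*, so the sample was not higher in all contractile genes alike. It was also the deepest library, and its sum of OB genes, 28368 FPKM, was the lowest of day 10. The part of these features in the result was not tested. No label sets the sample apart from the others of its day.

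Without day 10 replicate 3, 5 of the 10 genes had an unadjusted p under 0.05, beside 10.1% of all genes tested in that fit. These were *Acta2* (log2 difference 0.73, SE 0.21), *Actg2* (0.82, SE 0.16), *Tagln* (0.99, SE 0.19), *Tpm2* (0.61, SE 0.21) and *Cald1* (0.85, SE 0.17). The days did not overlap for these and *Tpm1*, that is for 6 of 10, beside 25.6% of all genes. Even so, none of them passed the adjustment over all genes, with a smallest adjusted p of 0.233 by limma. This sample is singled out after its values were seen, among 6 fits that each lacked a sample, and the values describe what it contributed.

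Some members moved together from sample to sample. The level of *Actg2* was 19.3%, 19.2% and 19.8% of that of *Acta2* on day 10 and 21.0%, 23.4% and 17.6% on day 14. Both genes more than doubled between samples of day 10 while this ratio hardly moved, and the SD of its log2 value over 6 samples was 0.14 against 0.54 for the level of *Actg2* itself. *Tpm2* stood at 7.91% to 9.46% of *Acta2*, with an SD of 0.10 for the log2 ratio against 0.48 for the level. The regulatory myosin light chain *Myl9*, which is not a member, was also close to proportional, with an SD of 0.18 against 0.52. For *Tagln* the SD was 0.21 against 0.54. *Tagln* was 32.6%, 34.2% and 28.2% of *Acta2* on day 10 and 40.4%, 38.3% and 40.9% on day 14. Its ratio did not overlap between days, with p = 0.1 in the exact permutation test, the smallest possible. It was singled out after its values were seen, from 9 such ratios of members and those of *Myl9* and *Actb*. The antisense reads in *Tagln* apply here too.

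*Cnn2* and *Smtn* varied less than their ratio to *Acta2*. *Cnn2* ranged from 28.2% to 84.6% of *Acta2*, and the SD of the log2 ratio, 0.61, was larger than that of the level, 0.26. *Smtn* was similar, with 0.50 against 0.19.

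**Figure D3:**
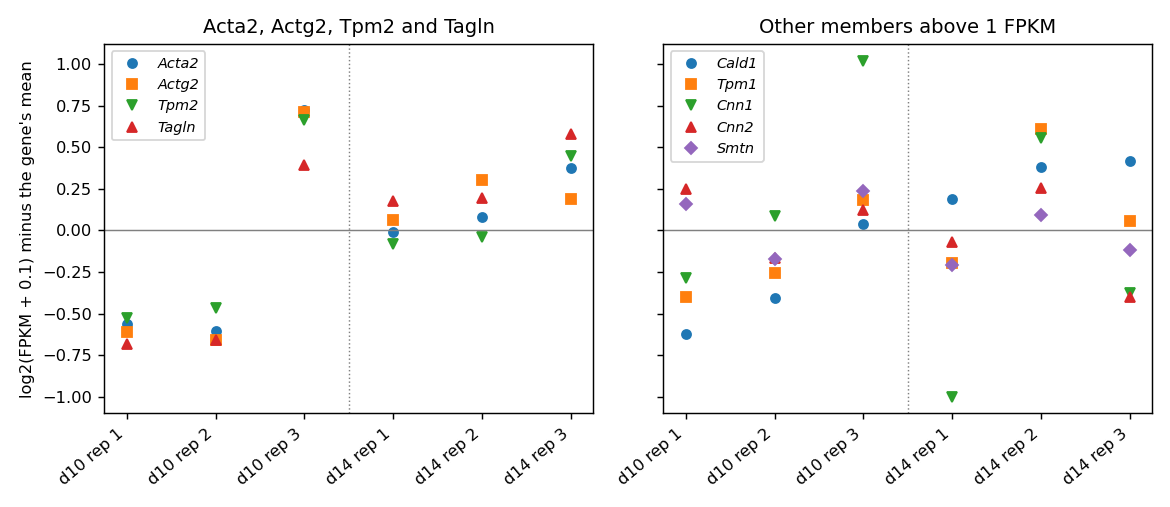
Deviation of log2(FPKM + 0.1) from the gene's mean over the 6 samples, 1 point per gene and sample, for *Acta2*, *Actg2*, *Tpm2* and *Tagln* (left) and the other members above 1 FPKM (right). The left set is low in day 10 replicates 1 and 2 and high in day 10 replicate 3, where *Acta2* was 594 FPKM, whereas *Cnn2* and *Smtn* keep to a narrower range and *Cnn1* is the most spread.

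Correlations with *Acta2* are given as a description over 6 samples, which differ in depth and in day. The part of either in the correlations was not tested. *Tpm2* had the largest Pearson r with *Acta2* on the log2 scale of 4604 genes with a mean of at least 10 FPKM (r = 0.984). *Actg2* was at place 6 (r = 0.966) and *Tagln* at place 23 (r = 0.924). *Cald1* (r = 0.729), *Tpm1* (0.612), *Smtn* (0.308) and *Cnn2* (−0.115) were further down, at places 283, 615, 1749 and 2933. The 5 genes outside the set with the largest r were *Plscr3*, *Ripk3*, *Kctd5*, *Csrp2* and *Actr2*, from 0.972 to 0.964. Of these *Csrp2*, a cysteine- and glycine-rich LIM protein of smooth muscle, was 122, 114 and 201 FPKM on day 10 and 159, 175 and 197 FPKM on day 14. Leaving out day 10 replicates 2 and 3, the samples farthest from the median of *Acta2*, r was 0.974 for *Tpm2*, 0.905 for *Actg2*, 0.994 for *Tagln*, 0.957 for *Cald1* and 0.582 for *Tpm1* over 4 samples. The value of *Cald1* was then above that of *Actg2*, so the order of these members depended on the samples used. Places among all genes were not computed over the 4 samples. The r of *Smtn* went from 0.308 to −0.620 and that of *Cnn2* from −0.115 to −0.731 in the same step.

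Several members have relatives that are used in nearly every cell, and their levels can be given as a share of each family's summed FPKM. *Cnn2* and *Tpm1* are also made outside smooth muscle, so their shares are not shares of smooth muscle forms. A share does not depend on the scaling between samples. *Acta2* made up 21.9%, 22.9% and 32.9% of actin FPKM on day 10 and 30.7%, 26.9% and 32.3% on day 14, against means of 65.4% and 60.3% for the cytoplasmic β-actin gene *Actb*. The *Acta2* share was highest in day 10 replicate 3, and its means of 25.9% ± 6.08 and 30.0% ± 2.76 did not differ beyond the spread (exact permutation test, p = 0.4). *Actg2* added 5.05% ± 1.28 and 6.13% ± 0.409, and the cardiac actin gene *Actc1* was listed at 0 in all samples.

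Among tropomyosins, *Tpm1* and the non-muscle *Tpm4* had nearly equal shares, 44.7% ± 1.06 and 44.6% on day 10 and 46.2% ± 7.25 and 43.5% on day 14. Day 14 replicate 2 stood apart with 54.4% *Tpm1*, and without it the difference in the *Tpm1* share turned from 1.55 to −2.53 percentage points. *Tpm2* held 4.62% and 4.43%. *Cnn2* and *Cnn3*, the calponins made in many cell types, shared nearly all calponin FPKM, and *Cnn1* held 2.12% on day 10 and 1.30% on day 14. The *Cnn3* share was 52.3% ± 6.02 on day 10 and 62.4% ± 5.31 on day 14 without overlap (exact permutation test, p = 0.1, the smallest possible), while that of *Cnn2* was 45.5% ± 6.73 and 36.3% ± 5.06 (p = 0.2). This test was run for the share of every gene in the families, so *Cnn3* is picked from many. The share of *Tagln3* did not overlap either, at means of 0.271% on day 10 and 0.0526% on day 14, for a gene at 0.508 FPKM on average. *Tagln* held 32.2% ± 6.27 and 35.2% ± 1.96 of transgelin FPKM (exact permutation test, p = 0.5), the rest being almost all *Tagln2*. Some relatives share 75-base stretches with other genes, 42.7% of them in *Actg1*, 33.3% in *Tpm3*, 16.4% in *Cnn3* and 12.4% in *Tpm4*, so that these shares are uncertain.

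**Figure D4:**
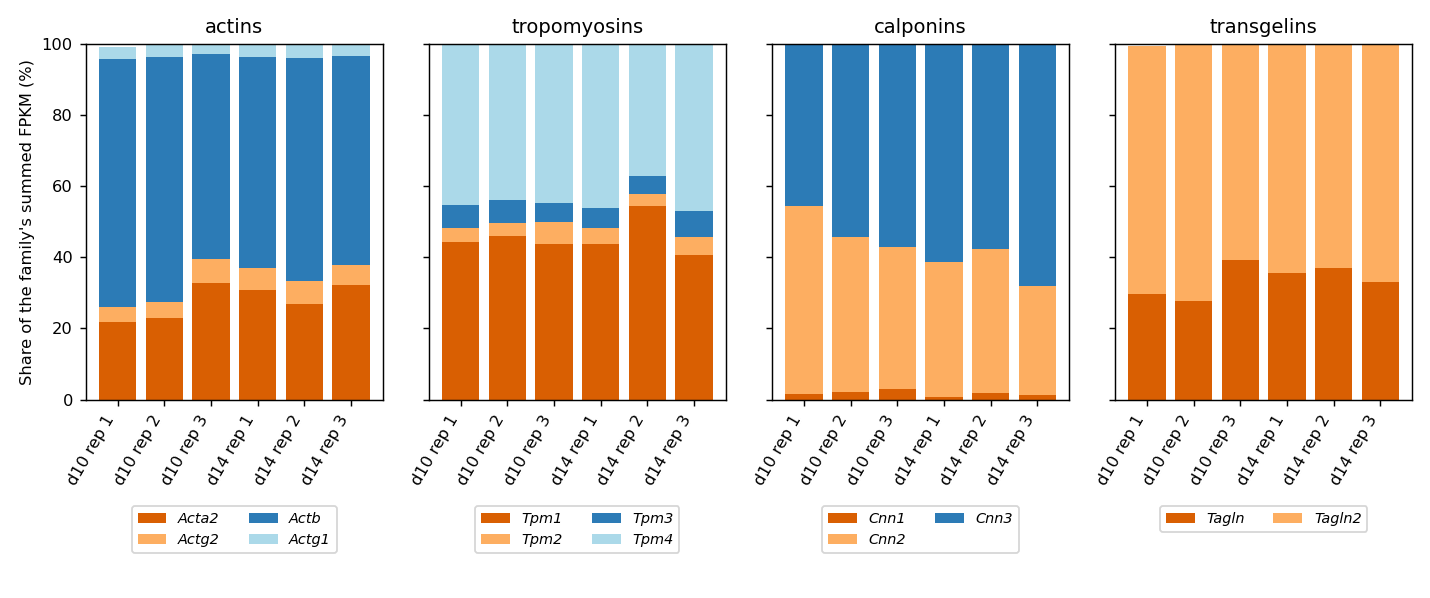
Share (%) of each family's summed FPKM held by its genes in each of the 6 samples, as stacked bars for actins, tropomyosins, calponins and transgelins. The small remainders at the top are *Acta1* and *Tagln3*, and the *Cnn3* share lies above 57% in all day 14 samples.

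A list of 8 genes that mark fully differentiated smooth muscle was read beside the members. The list leaves out the members themselves, of which *Actg2* (75.9 FPKM) and *Smtn* (46.4 FPKM) were well above *Cnn1* (7.48 FPKM) and *Lmod1* (0.227 FPKM). Of the 8 listed genes, 7 had a mean below 1 FPKM. *Myh11*, the smooth muscle myosin heavy chain, was 0.447, 0.228 and 0.643 FPKM on day 10 and 0.650, 0.185 and 0.354 FPKM on day 14, with overlapping days. *Myocd*, the gene of myocardin, was 0.0890 to 1.24 FPKM, *Kcnmb1*, a potassium channel subunit of smooth muscle, 0 to 0.824 FPKM, and *Ppp1r14a*, an inhibitor of myosin phosphatase, was listed at 0 in all samples. The exception was *Des*, desmin, at 6.34 to 16.2 FPKM. The sum over the list was 10.8 to 18.8 FPKM on day 10 and 8.32 to 17.7 FPKM on day 14, whereas the 10 contractile genes summed to 909 to 1623 and 1178 to 1493 FPKM. The non-muscle myosin heavy chain gene *Myh9*, in comparison, was 21.1 to 37.4 FPKM.

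**Figure D5:**
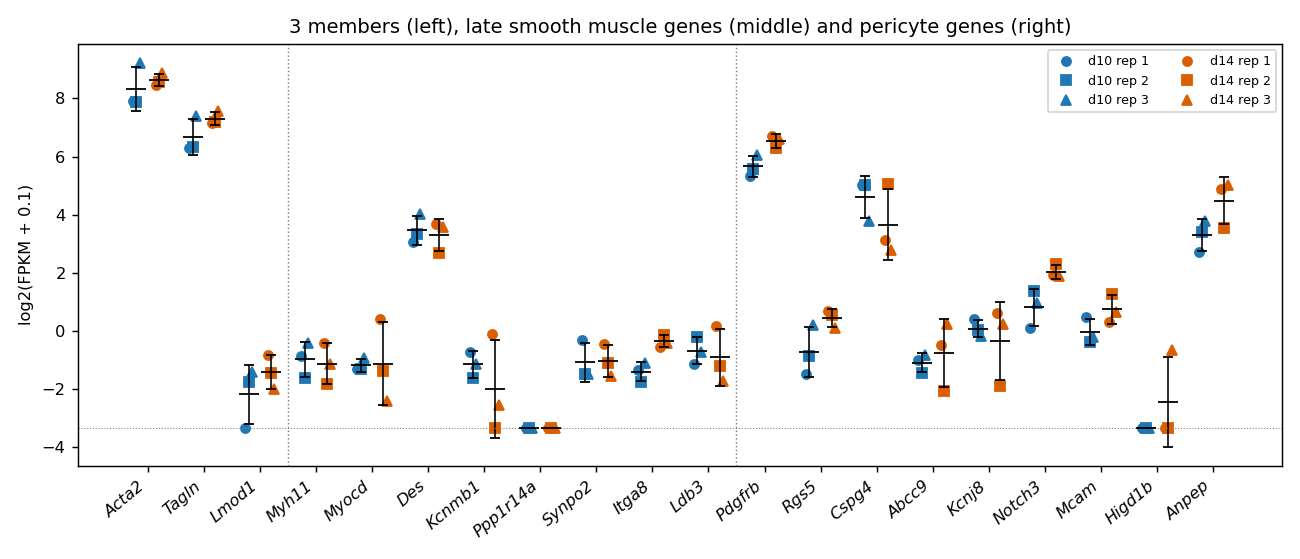
Level as log2(FPKM + 0.1) in each sample, with the mean and SD of each day as bars and 0 FPKM as the dotted line, for *Acta2*, *Tagln* and *Lmod1* (left), genes of differentiated smooth muscle (middle) and pericyte genes (right). *Des* is the only gene in the middle that lies at 6.34 FPKM or above, and *Acta2* lies between 236 and 594 FPKM.

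The other genes of the contractile system were read from lists of genes. None of their members had an adjusted p under 0.05 by limma. Counts at an unadjusted p under 0.05 are given beside the 10.0% of all genes tested, of which 1094 were higher and 860 lower on day 14. In the fit of genes with a mean above 1 FPKM this share was 15.3%. Of 15 tested genes of myosin and its regulators, 5 were higher on day 14 and 0 lower, with a median log2 difference of 0.42. They were the light chain *Myl12b* (0.65), the myosin light chain kinase *Mylk* (0.81), the phosphatase subunit *Ppp1r12c* (0.53) and the kinases *Rock2* (0.63) and *Prkg1* (0.65). *Mylk*, the kinase that triggers smooth muscle contraction, was 1.90, 3.25 and 3.59 FPKM on day 10 and 5.94, 5.50 and 3.85 FPKM on day 14 without overlap. Days did not overlap for 14.3% of all genes, and for 20.3% in the fit of genes with a mean above 1 FPKM. *Mylk*, and *Svil* and *Fhl2* below, were named for their p, so lack of overlap in the same values adds no separate support. *Myl9* was 77.2, 88.6 and 197 FPKM on day 10 and 134, 163 and 146 FPKM on day 14, and it did not pass.

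Of 16 genes that anchor actin to adhesions and dense plaques, 4 were higher on day 14 and 0 lower (median 0.25). These were the cross-linker *Actn1* (0.53), the LIM proteins *Pdlim3* (1.18) and *Pdlim5* (0.53) and *Svil*, supervillin, which ties actin and myosin to the membrane (0.85). *Svil* was 4.86, 6.64 and 8.41 FPKM on day 10 and 12.7, 10.4 and 12.1 FPKM on day 14 without overlap. Among 15 tested relatives of the members, none had an unadjusted p under 0.05, and their median was 0.17.

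Of 14 tested genes of SRF and its cofactors, 1 was higher on day 14 and 0 lower (median 0.25). It was *Fhl2*, a LIM cofactor, at 14.3, 13.4 and 29.5 FPKM on day 10 and 40.3, 32.4 and 33.4 FPKM on day 14, a log2 difference of 0.98 (SE 0.29, adjusted p = 0.347 by limma). The days did not overlap, and day 10 replicate 3 was again the highest of its day. *Srf* itself was 5.41, 6.40 and 6.11 FPKM on day 10 and 3.94, 6.72 and 2.99 FPKM on day 14. The myocardin-related factors *Mkl1* and *Mkl2* were present at 2.60 to 5.67 and 2.46 to 5.99 FPKM with overlapping days.

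Markers of other cells that use these contractile genes were set beside them. Of 8 tested pericyte genes, 3 were higher on day 14 and 0 lower, with a median of 0.83, and the list sum was 83.9 to 98.9 FPKM on day 10 and 131 to 151 FPKM on day 14. *Pdgfrb*, the receptor that recruits pericytes and is also made by fibroblasts, was 40.5, 47.8 and 66.6 FPKM on day 10 and 104.7, 77.8 and 97.9 FPKM on day 14 (log2 difference 0.88, SE 0.21, adjusted p = 0.305 by limma). *Notch3* (log2 difference 1.22) and *Anpep* (1.18) were the others. *Cspg4*, the proteoglycan NG2 of pericytes, was 32.7, 32.5 and 13.7 FPKM on day 10 and 8.75, 33.2 and 6.75 FPKM on day 14, a log2 difference of −0.96 (SE 0.58, adjusted p = 0.643 by limma). *Kcnj8*, a potassium channel gene of pericytes, also had a negative log2 difference (−0.43), and 6 of the 8 were positive. *Pdgfrb* and *Anpep* held most of the higher list sum on day 14. The more restricted pericyte genes were low, with *Rgs5* at means of 0.583 FPKM on day 10 and 1.28 FPKM on day 14 and *Higd1b* at 0 in all samples but 1.

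Of 11 fibroblast and myofibroblast genes, 1 was higher on day 14 and 0 lower (median 0.31), namely *Fbln1*, a matrix glycoprotein, with a log2 difference of 1.45 (SE 0.36, adjusted p = 0.305 by limma). The list sum was 11370 to 16230 FPKM on day 10 and 17329 to 23789 FPKM on day 14. Both it and the pericyte sum were therefore higher in every day 14 sample, like *Cald1*. This was not particular to these lists. The endothelial sum was at most 4.02 FPKM on day 10 and at least 4.17 FPKM on day 14. The sum of the actin anchoring genes was at most 1370 FPKM on day 10 and at least 1472 FPKM on day 14. *Col3a1* was the highest gene of the fibroblast list in every sample, and its days overlapped. It was 5271, 6750 and 9676 FPKM on day 10 and 11392, 7900 and 15502 FPKM on day 14. Of the 11 log2 differences 10 were positive, but those of *Pdgfra* (−0.016), *Lum* (0.036) and *Lox* (0.054) were small. The part of any of these list sums in the *Cald1* result was not tested. Skeletal muscle genes summed to 2.87 to 10.0 FPKM on day 10 and 1.98 to 5.05 FPKM on day 14, and 11 of 12 had a mean below 1 FPKM. Of 7 tested, 1 was higher, *Mb*, at no more than 1.11 FPKM in any sample. *Acta1*, skeletal actin, was at 8.33 FPKM in day 10 replicate 1 and below 0.6 FPKM elsewhere.

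Of 9 endothelial genes, 1 was higher on day 14 and 0 lower, *Emcn*, which stayed below 0.6 FPKM, and the list sum was 2.39 to 4.02 FPKM on day 10 and 4.17 to 8.57 FPKM on day 14. Of 9 myeloid genes none passed in either direction, and their sum was 36.1 to 161 FPKM on day 10 and 262, 20.2 and 615 FPKM on day 14. The myeloid sum was lowest in day 14 replicate 2, in which *Cald1* was 103.0 FPKM. Of the 7 OB genes 0 were higher and 2 lower on day 14, *Sp7* (log2 difference −2.34) and *Dlx5* (−1.91), and the median of the list was −1.69. Of the 10 chondrocyte genes 0 were higher and 3 lower, *Col9a1* (−2.59), *Col9a3* (−2.81) and *Col11a1* (−1.52). The part of these lists in the values of the contractile genes was not tested.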

How the data were processed

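The authors mapped 75-base single-end reads to mm10 and deposited FPKM per gene, 1 file per sample. The submitters' processing notes name TopHat2 2.0.13, Bowtie2 2.2.3, SAMtools 0.1.19 and Cufflinks 2.2.1. The gene annotation and the treatment of reads with several mapping positions are not given in the sources used here. In 1 file 25 symbols had been turned into dates and were restored by position; none was a member. Groups followed the sample titles.

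The days were compared with limma 3.58.1 (R 4.3.3) on log2 of FPKM plus a pseudocount of 0.1, with a mean-variance trend and the day as the factor. The 19526 genes with a mean over 0.1 FPKM entered, and all 10 members passed. P-values were adjusted over these genes by Benjamini-Hochberg. Single values and shares were compared by two-sided exact permutation tests. P-values set the difference between days against the spread between these samples, and which animals that spread covers is not stated.

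The members, 12 gene lists and tests were chosen with earlier results of these data known. Named genes were all members, in each list those with an unadjusted p under 0.05 or otherwise up to 4 of high level and defining markers near 0, and the 5 other genes with the largest r with *Acta2*. *Myl9*, *Myh9*, *Acta1*, *Mkl1*, *Mkl2*, *Cspg4*, *Kcnj8*, *Col3a1*, *Pdgfra*, *Lum*, *Lox* and relatives of the members were named in addition. The older symbol Emr1 stood for *Adgre1*. Depth was estimated with a fragment length of 230 bases, and 75.39% to 79.89% of low values then lay no more than 0.1 from a whole read. The comparison was tested on simulated data. Alternatives were other pseudocounts, filters, scalings and variance models, the replicate number as a block, and leaving out each sample in turn.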

Additional observations from a re-analysis of the deposited data

How the results depend on the processing

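No member had an adjusted p under 0.05 by limma under any of 14 alternatives, and the smallest adjusted p of any member ranged from 0.233 to 0.997 over them. Of 139 member values under the alternatives, 138 kept their direction. The exception was *Cnn2*, whose log2 difference was 0.022 without day 14 replicate 3, in a range of −0.31 to 0.022 when single samples were left out. The log2 differences of the other members of higher level ranged over the alternatives from 0.065 to 0.73 for *Acta2*, 0.13 to 0.82 for *Actg2*, 0.45 to 0.99 for *Tagln*, 0.088 to 0.49 for *Tpm1*, 0.012 to 0.61 for *Tpm2*, −0.96 to −0.17 for *Cnn1* and −0.27 to −0.071 for *Smtn*. The difference in the *Tpm1* share ranged from −2.53 to 4.40 percentage points in the same step, and it was negative without day 14 replicate 2. The count of members with an unadjusted p under 0.05 was 1 to 5 when single samples were left out, with 5 without day 10 replicate 3 and 2 (*Cnn1* and *Cald1*) without day 14 replicate 2. The count of members whose days did not overlap was 1 to 6, with 6 without day 10 replicate 3, 2 without day 10 replicate 2 and 2 without day 14 replicate 2. The count of members past 2-fold was 0 to 1, the 1 being *Lmod1*, which also passed with a pseudocount of 0.01 (1 member). The count over all genes with an adjusted p under 0.05 was 3, and 3 to 76 when single samples were left out, with 76 without day 14 replicate 2. The cause of these changes was not tested.

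With the replicate number as a block, 2 members had an unadjusted p under 0.05, *Cald1* and *Tagln*, and the smallest adjusted p of any member was 0.238 by limma. Samples with the same number, each centered on the mean of its day, correlated at 0.058, −0.0058 and 0.0887 across 19526 genes. Values over all genes cannot decide whether the numbers pair the samples for the members. With the block, the SE went from 0.32 to 0.19 for *Tpm2* and from 0.29 to 0.19 for *Tagln*. It was larger than without the block for *Cnn2*, *Lmod1* and *Smtn*. Depth limits *Lmod1*, which rests on no more than 7.9 estimated reads per sample.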
